A study of Mus musculus with 8 samples.

Results

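Lower glycolysis, from aldolase to pyruvate kinase, was measured through 10 genes, *Aldoa*, *Aldoc*, *Tpi1*, *Gapdh*, *Pgk1*, *Pgam1*, *Eno1*, *Eno2*, *Eno3* and *Pkm*. They were taken by symbol from a table of 22520 genes and assembled transcripts, and all 10 had a row. The table came from bulk RNA-seq of mouse CD8+ T cells purified from the spleens of wild-type mice and held under anti-CD3, anti-CD28 and IL-2 for 6 days, a culture that drives T cells toward exhaustion. Diisopropylamine dichloroacetate (DADA), an inhibitor of pyruvate dehydrogenase kinase, was added at 40 µM from day 3 in 4 libraries, and the solvent DMSO in the other 4. Both groups shared the stimulation and neither carried a genetic change. GEO's genotype field reads "control" for DMSO and "model" for DADA. The 4 libraries of a group are given as biological replicates without saying whether each came from its own mouse or culture, so the p-values below measure only the spread between these libraries. The methods give the C57BL/6J mice of the study as male and 6 to 8 weeks old. The question put to these genes was whether DADA, which acts just downstream of pyruvate, changed the transcripts of the enzymes that make pyruvate, isozyme by isozyme.

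In this stretch of the pathway, aldolase splits fructose 1,6-bisphosphate into 2 triose phosphates, triosephosphate isomerase interconverts them, and GAPDH oxidizes and phosphorylates glyceraldehyde 3-phosphate while reducing NAD+. Phosphoglycerate kinase then makes ATP, phosphoglycerate mutase and enolase rearrange and dehydrate the product to phosphoenolpyruvate, and pyruvate kinase makes ATP again as it releases pyruvate. Activated T cells raise these enzymes, and several of the genes are textbook targets of the hypoxia-inducible factor HIF-1 and of MYC. Aldolase C and the enolases encoded by *Eno2* and *Eno3* are isozymes best known from brain and muscle, beside the widely expressed *Aldoa* and *Eno1*.

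Transcripts of most of the abundant enzymes of lower glycolysis about doubled with DADA, and that of pyruvate kinase went the other way. Enzyme levels were not measured in this table. From acidification of the medium by such cells, the paper reports a negligible effect of DADA on glycolysis. The levels are given as FPKM, fragments scaled by transcript length and by the mapped fragments of the library, a unit that corrects for length and so allows genes to be compared. *Aldoa*, *Tpi1*, *Pgk1*, *Pgam1* and *Eno1* rose by 1.92- to 2.47-fold in mean FPKM, *Aldoc* rose by 9.50-fold from a low level, and *Pkm* fell to 0.395 of its level with DMSO. *Eno3* fell slightly, *Eno2* was not called, and *Gapdh* was called higher with a spread that makes its size uncertain. In all, 7 of the 10 genes were called higher and 2 lower. A call here is an adjusted p-value under 0.05 in limma, fitted on log2(FPKM + 1) over the 10666 rows with 4 or more of the 8 libraries at 1 FPKM or above, a filter that all 10 genes passed. Across those rows, 66.2% were called, 30.9% higher and 35.3% lower, so a call alone is common in this comparison. A call with a change of at least 1 on the log2 scale was less common, at 3.56% of rows for a rise and 0.469% for a fall, and 5 of the 10 genes rose and 1 fell by that much. The median log2 fold change of the 10 genes was 1.01, and that of all rows tested was -0.02.

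**Figure D1:**
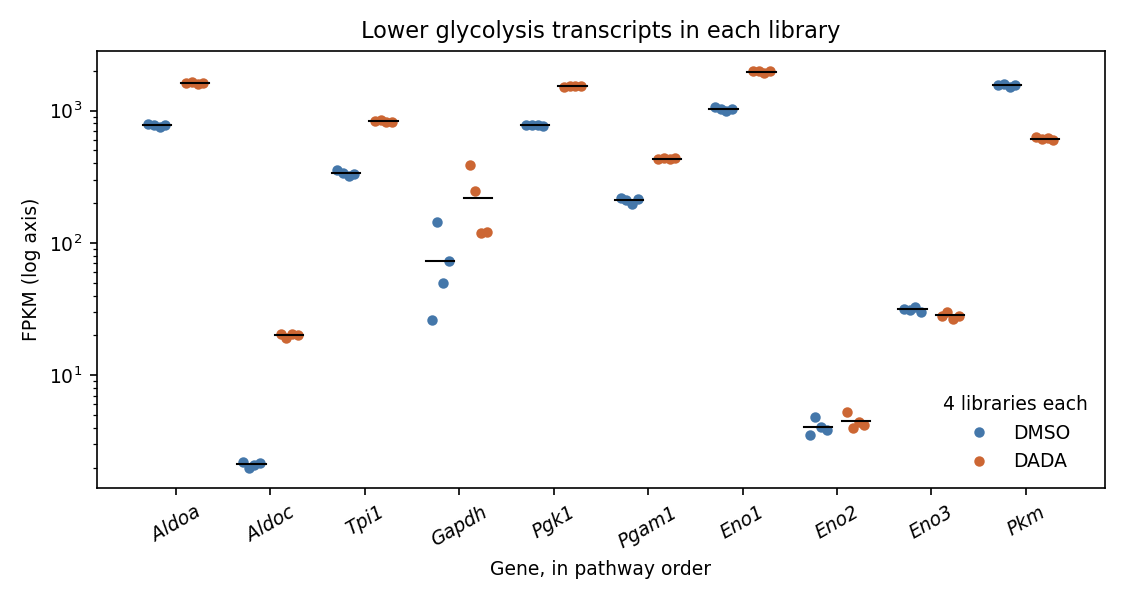
FPKM (log axis) of the 10 genes in pathway order, with 1 point for each of the 4 DMSO and 4 DADA libraries and a black line at the group mean. The DADA points lie above the DMSO points for *Aldoa*, *Aldoc*, *Tpi1*, *Pgk1*, *Pgam1* and *Eno1* and below them for *Pkm*, and the 2 groups overlap for *Gapdh*, *Eno2* and *Eno3*.

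With DMSO, *Pkm* was the most abundant of the 10 transcripts at a mean of 1553 FPKM, followed by *Eno1* at 1027, *Pgk1* at 777 and *Aldoa* at 774. The libraries of *Pgk1* and *Aldoa* overlapped, and the other neighbours among these genes did not. *Tpi1* at 336 and *Pgam1* at 211 FPKM came next, and *Gapdh*, *Eno3*, *Eno2* and *Aldoc* lay lower. With DADA, the order was led by *Eno1* at 1974, *Aldoa* at 1622, *Pgk1* at 1528 and *Tpi1* at 831 FPKM, followed by *Pkm* at 614 FPKM, and no neighbours among these 5 overlapped. Among the 10666 rows, *Eno1* went from rank 60 by mean FPKM with DMSO to rank 16 with DADA, and *Pkm* from rank 35 to rank 100.

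**Figure D2:**
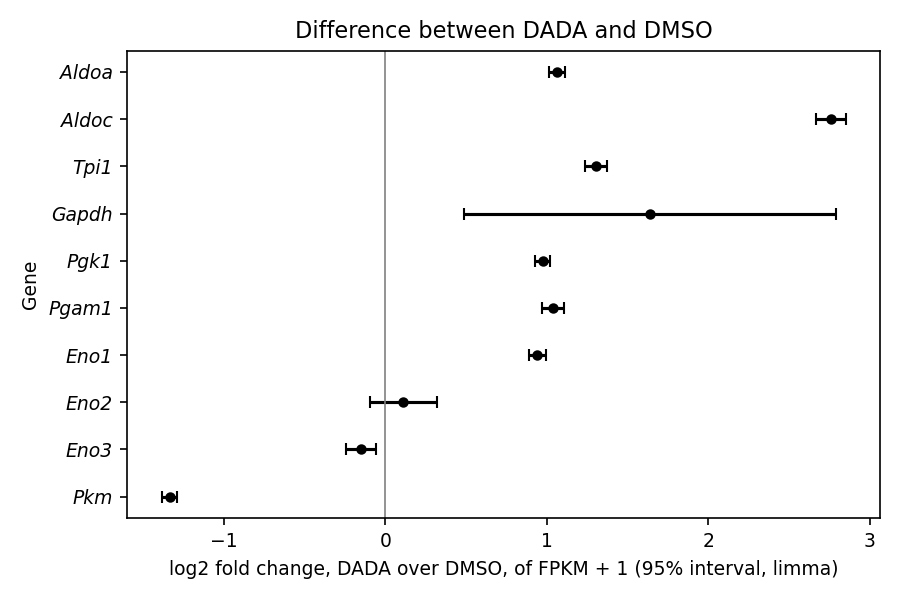
Log2 fold change of FPKM + 1 with DADA over DMSO for each gene, with its 95% interval from limma over 4 libraries a group. The intervals of *Aldoa*, *Pgk1*, *Pgam1* and *Eno1* lie near 1, and that of *Tpi1* spans 1.23 to 1.37. *Aldoc* lies at 2.76 and *Pkm* at -1.34, and the interval of *Gapdh* spans 0.49 to 2.79.

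*Aldoa*, the main aldolase of these cells (ENSMUSG00000030695), had 790.5, 778, 756 and 773 FPKM across the DMSO group, against 1632, 1652, 1589 and 1614 FPKM across the DADA group. Every DADA library was above every DMSO library. On the log2(FPKM + 1) scale the difference was 1.07 (standard error 0.0223, limma, adjusted p = 1.11e-10). *Aldoc* (ENSMUSG00000017390), the aldolase known from the brain, was close to the filter with DMSO, at 2.22, 1.98, 2.10 and 2.16 FPKM, and lay at 20.4, 19.2, 20.4 and 20.3 FPKM with DADA. The DADA values were thus all far above the DMSO values, at a mean of 20.1 ± 0.567 against 2.11 ± 0.101 FPKM (SD, n = 4). Its difference of 2.76 on the log2(FPKM + 1) scale (limma, adjusted p = 1.35e-11) ranked 38th among the rises of all rows, and it was 3.19 with a pseudocount of 0.1. *Aldoc* held 0.272% of the summed FPKM of both aldolases with DMSO and 1.22% with DADA, so *Aldoa* was nearly all of the step in both groups. The log2 ratio of *Aldoc* to *Aldoa* within a library, each as FPKM + 1, was higher by 1.69 with DADA (exact permutation test, two-sided, p = 0.0286, adjusted over 4 isozyme ratios p = 0.0381). This is the smallest p that 70 assignments of 4 against 4 libraries allow.

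The 250 bases of genomic sequence before the start of *Aldoc*, *Pgk1*, *Pgam1* and *Tpi1*, which rose, and of *Pkm*, which fell, are shown because hypoxia-inducible factors bind the core motif ACGTG or GCGTG on either strand, and both kinds of gene can be compared for it. The sequences are RefSeq's for the mouse build GRCm38.p6, written 5′ to 3′ along the gene, with each core match in capitals.
Aldoc start 1, chr11:78322823-78323072, plus strand: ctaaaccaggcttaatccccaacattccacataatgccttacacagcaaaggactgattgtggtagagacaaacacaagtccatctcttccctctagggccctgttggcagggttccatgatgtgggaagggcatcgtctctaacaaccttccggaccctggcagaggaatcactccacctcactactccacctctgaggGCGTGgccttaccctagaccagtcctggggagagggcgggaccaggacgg
Aldoc start 2, chr11:78323948-78324197, plus strand: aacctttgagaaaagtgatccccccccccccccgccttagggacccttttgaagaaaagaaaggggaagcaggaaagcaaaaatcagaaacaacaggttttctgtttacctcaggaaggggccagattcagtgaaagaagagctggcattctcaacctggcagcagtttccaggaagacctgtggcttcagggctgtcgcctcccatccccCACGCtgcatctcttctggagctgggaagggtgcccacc
Pgk1, chrX:106186850-106187099, plus strand: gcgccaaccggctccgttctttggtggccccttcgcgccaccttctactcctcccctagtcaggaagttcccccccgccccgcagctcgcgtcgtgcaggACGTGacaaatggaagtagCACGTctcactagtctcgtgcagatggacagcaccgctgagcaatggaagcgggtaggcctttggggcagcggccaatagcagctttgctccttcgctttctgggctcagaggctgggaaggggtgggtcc
Pgam1, chr19:41911621-41911870, plus strand: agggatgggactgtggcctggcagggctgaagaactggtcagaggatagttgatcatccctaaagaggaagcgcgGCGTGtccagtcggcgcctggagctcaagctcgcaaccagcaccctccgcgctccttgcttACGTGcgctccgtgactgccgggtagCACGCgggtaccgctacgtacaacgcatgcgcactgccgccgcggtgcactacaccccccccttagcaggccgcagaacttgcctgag
Tpi1, chr6:124814159-124814408, minus strand: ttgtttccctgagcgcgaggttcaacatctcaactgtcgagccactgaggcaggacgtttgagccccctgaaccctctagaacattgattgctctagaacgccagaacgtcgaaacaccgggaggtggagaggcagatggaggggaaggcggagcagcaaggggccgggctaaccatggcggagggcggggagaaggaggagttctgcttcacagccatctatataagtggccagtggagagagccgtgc
Pkm start 2, chr9:59656977-59657226, plus strand: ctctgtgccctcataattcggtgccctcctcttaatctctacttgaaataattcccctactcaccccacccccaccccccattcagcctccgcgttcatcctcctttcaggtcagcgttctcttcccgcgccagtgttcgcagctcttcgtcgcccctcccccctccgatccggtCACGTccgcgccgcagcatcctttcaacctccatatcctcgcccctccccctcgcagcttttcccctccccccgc
Both starts of *Aldoc* held 1 match, *Pgk1* held 2 and *Pgam1* held 3. *Tpi1*, which rose, held none in this window. Of the 2 starts of *Pkm*, which fell, the first held none and the second, shown above, held 1, at 75 bases before the start. The window of *Eno3*, which fell slightly, also held 1. Whether a match bears on the direction of change was not tested. Over all 10 genes, which have 16 annotated windows, 8 genes held at least 1 match in some window, and *Tpi1* and *Eno2* did not. Of 26994 genes in the same table, 41.5% held one. Genes with more windows have more chances to hold a match. By window, 12 of the 16 held a match, some of them overlapping windows of the same gene, against 38.6% of all windows. The share moves with base composition, and was 63.9% for the 9171 windows with at least 60% G and C. The motif CACGTG, the E-box that MYC binds and that holds the core ACGTG, was in no window of the 10 genes and in some window of 6.86% of all genes. A match is a string of letters and not a bound site.

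*Tpi1* (ENSMUSG00000023456) encodes triosephosphate isomerase and was at 355, 335, 321 and 333 FPKM with DMSO and at 837, 852, 814 and 822 FPKM with DADA. The groups were wide apart beside their spread, with a coefficient of variation of 4.20% with DMSO and 2.04% with DADA. Its mean rose by 2.47-fold, with a 95% interval of 1.23 to 1.37 on the log2 scale (standard error 0.0310, limma, adjusted p = 2.94e-10). This was the largest rise of the 5 abundant and even genes, and whether it exceeded that of the others was not tested.

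*Gapdh* (ENSMUSG00000057666), a gene often used as a constant reference, was the least even of the 10. The paper's own qPCR values were scaled to it. It was at 26.2, 145, 49.4 and 73.3 FPKM with DMSO and at 385, 247, 119 and 121 FPKM with DADA. The highest DMSO library, replicate 2, was above DADA replicates 3 and 4, so the groups overlapped. Its coefficient of variation reached 69.9% for DMSO and 58.0% for DADA, against 1.03% to 4.21% for the 6 other genes above 200 FPKM in either group. The difference was 1.64 on the log2(FPKM + 1) scale (95% interval 0.49 to 2.79, limma, adjusted p = 0.0175), whereas the two-sided exact permutation test over the 8 libraries gave p = 0.0857. All 16 other fits gave a limma call, with adjusted p between 0.00370 and 0.0480, and with 1 library left out the difference lay between 1.24, without DMSO replicate 1, and 2.05, without DMSO replicate 2.

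A search of annotated mouse transcripts (GENCODE M21) against *Gapdh* returned 163 other genes that matched at least 500 bases at 90% identity or more, of which 155 were pseudogenes. The other 9 genes had between 0 and 6 such copies each, with 6 for both *Eno1* and *Pkm*, 5 for *Aldoa* and none for *Aldoc*, *Eno2* and *Eno3*. How the authors' tools divided fragments among copies is not given in the sources used here, so the level of *Gapdh* is uncertain. Its retrotransposed copies *Gapdhrt2* and *Gapdhrt*, which match *Gapdh* at 99.2% of bases, varied far less than *Gapdh* itself. *Gapdhrt2* was at 22.9, 21.5, 20.1 and 21.2 FPKM with DMSO and at 40.3, 40.3, 37.9 and 40.8 FPKM with DADA. *Gapdhrt* averaged 4.31 ± 0.267 FPKM in the DMSO group and 8.12 ± 0.121 in the DADA group (SD, n = 4). Both were higher in every DADA library, with log2 differences of 0.86 for *Gapdhrt2* (limma, adjusted p = 4.04e-08) and 0.78 for *Gapdhrt* (limma, adjusted p = 2.11e-07). The ratio of *Gapdh* to *Gapdhrt2* ran from 1.14 to 6.71 over the DMSO libraries and from 2.97 to 9.54 over the DADA libraries. Reads of a gene and of its copies cannot be told apart in these values.

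**Figure D3:**
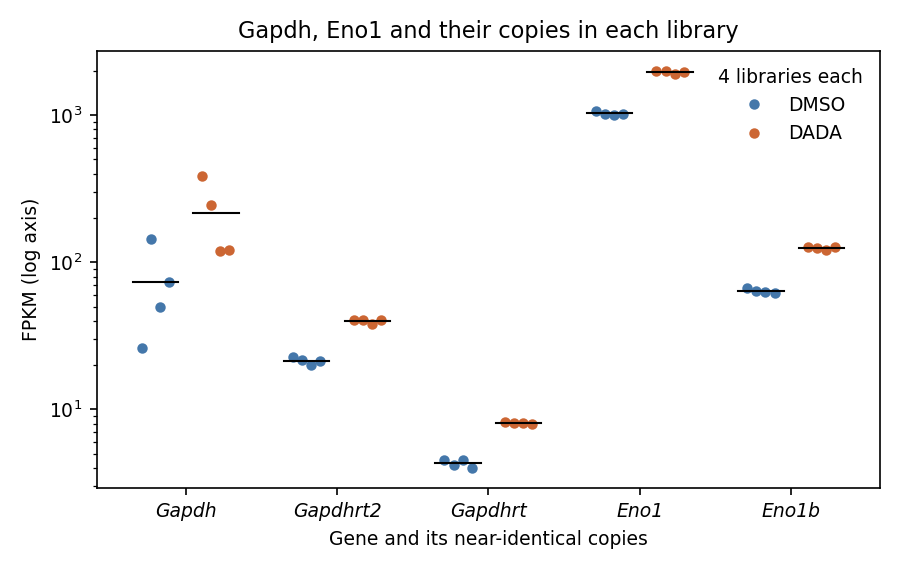
FPKM (log axis) of *Gapdh*, its copies *Gapdhrt2* and *Gapdhrt*, *Eno1* and its copy *Eno1b* in each of the 4 DMSO and 4 DADA libraries, with a black line at the group mean. *Gapdh* spreads over 26.2 to 145 FPKM in DMSO libraries and 119 to 385 FPKM in DADA libraries, whereas the libraries of a group nearly coincide for the other 4 genes.

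The ATP-yielding phosphoglycerate kinase gene *Pgk1* (ENSMUSG00000062070) lies on the X chromosome, and its testis paralog *Pgk2* was listed at 0 in all 8 libraries. *Pgk1* was at 784, 785, 777 and 762 FPKM with DMSO and at 1504, 1548, 1524 and 1536 FPKM with DADA. The coefficient of variation was 1.37% for DMSO and 1.22% for DADA, and no DADA library came near a DMSO library. The difference was 0.97 on the log2 scale (95% interval 0.93 to 1.02, limma, adjusted p = 1.05e-10). *Pgam1* (ENSMUSG00000011752), the phosphoglycerate mutase of most tissues, was at 219.8, 212, 199 and 213 FPKM with DMSO and at 429, 439, 431 and 437 FPKM with DADA. All DADA libraries were again above all DMSO libraries, by 1.04 on the log2 scale (limma, adjusted p = 1.12e-09). The muscle paralog *Pgam2* was far below *Pgam1*, averaging 0.550 ± 0.158 FPKM in the DMSO group and 1.70 ± 0.259 in the DADA group (SD, n = 4). It passed the filter only through the DADA libraries, where it is high, so its limma call is not counted as evidence of a rise.

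Among the enolases, *Eno1* (ENSMUSG00000063524) carried the step, at 1059, 1026, 1002 and 1022 FPKM with DMSO and at 1993, 2008, 1919 and 1978 FPKM with DADA. Its groups did not overlap, and the difference was 0.94 on the log2 scale (standard error 0.0246, limma, adjusted p = 5.47e-10). *Eno1b*, a retrogene copy of *Eno1* with 99.4% identity over the matched bases, averaged 63.7 ± 2.24 FPKM in the DMSO group and 125 ± 2.75 in the DADA group (SD, n = 4), a log2 difference of 0.96 (limma, adjusted p = 1.74e-09). Its ratio to *Eno1* lay between 0.0602 and 0.0641 in all 8 libraries, and the 2 genes cannot be told apart in shared reads. *Eno3* (ENSMUSG00000060600), the muscle enolase, was at 31.9, 31.1, 32.8 and 30.2 FPKM with DMSO and at 27.8, 30.3, 26.7 and 28.2 FPKM with DADA. DADA replicate 2 overlapped the lowest DMSO library, and the other DADA libraries lay below all DMSO libraries. The fall of 0.15 on the log2 scale was called by limma (adjusted p = 0.00757), and the two-sided exact permutation test gave p = 0.0571. *Eno2* (ENSMUSG00000004267), the neuronal enolase, was at 3.53, 4.86, 4.05 and 3.82 FPKM with DMSO and at 5.27, 3.99, 4.41 and 4.19 FPKM with DADA. The groups overlapped, with a log2 difference of 0.11 and a 95% interval of -0.10 to 0.32 (limma, adjusted p = 0.313).

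The isozymes of enolase therefore moved by different amounts, and this was tested on their ratios within each library. The log2 ratio of *Eno3* to *Eno1* differed by -1.09 with DADA, and that of *Eno2* to *Eno1* differed by -0.83 (exact permutation test, two-sided, p = 0.0286 for each, p = 0.0381 adjusted over the 4 isozyme ratios). The ratio of *Eno2* to *Eno3* differed by 0.26, which did not pass the test (exact permutation test, p = 0.0857 before and after adjustment). As a share of the FPKM of the 3 enolases, *Eno3* went from 2.96% ± 0.134 with DMSO to between 1.37% and 1.48% in the DADA libraries, and *Eno2* from 0.383% ± 0.0568 to 0.223% ± 0.0281 (SD, n = 4). The level of *Eno3* itself differed by -0.15 on the log2 scale, and that of *Eno1* by 0.94.

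**Figure D4:**
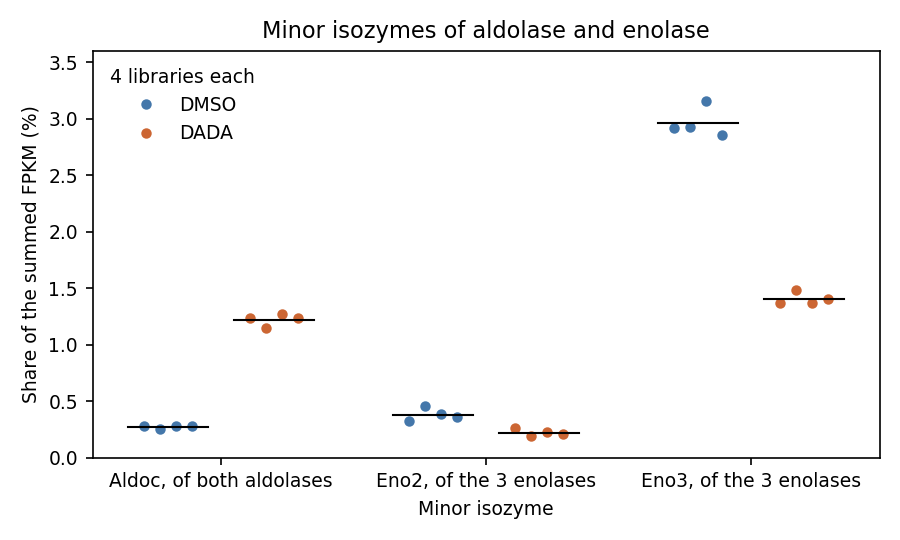
Share (%) of *Aldoc* in the FPKM of both aldolases and of *Eno2* and *Eno3* in the FPKM of the 3 enolases, for each of the 4 DMSO and 4 DADA libraries, with a black line at the group mean. The share of *Aldoc* goes from 0.272% to 1.22% and that of *Eno3* from 2.96% to at most 1.48%. None of the isozymes shown exceeds 3.16% of its sum in any library. The copy *Eno1b*, at 0.0602 to 0.0641 of *Eno1*, is not in the sum of the enolases.

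*Pkm* (ENSMUSG00000032294) was the 1 abundant gene of the set that fell. It encodes the pyruvate kinases M1 and M2, made by alternative splicing, and the single row per gene does not separate them. *Pkm* was at 1560.5, 1579, 1523 and 1549.9 FPKM across the DMSO group, against 628, 610.5, 617 and 599.5 FPKM across the DADA group. All 4 DADA libraries were far below all 4 DMSO libraries, at means of 614 ± 12.1 and 1553 ± 23.4 FPKM (SD, n = 4). The difference was -1.34 on the log2 scale (95% interval -1.39 to -1.29, limma, adjusted p = 3.08e-11), the 24th largest fall of the 10666 rows. The liver and red cell pyruvate kinase gene *Pklr* was listed at 0 in 7 libraries and at 0.0245 FPKM in DMSO replicate 4, so *Pkm* was nearly the whole of the measured step in both groups.

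Ratios within a library do not depend on how libraries were scaled to each other. *Eno1* was at 0.650 to 0.679 of *Pkm* in the DMSO libraries and at 3.11 to 3.30 times *Pkm* in the DADA libraries. The ratio of *Aldoa* to *Pkm* likewise went from 0.493 to 0.507 with DMSO to 2.57 to 2.71 with DADA. The 10 genes together summed to between 4665 and 4897 FPKM with DMSO and between 7064 and 7463 FPKM with DADA, or 1.03% to 1.08% and 1.61% to 1.69% of all FPKM of a library. *Pkm* alone made up 0.343% of the FPKM of a library with DMSO and 0.139% with DADA, on average.

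The groups did not overlap for 7 of the 10 genes, 6 of them higher and 1 lower with DADA, and over all rows tested this held for 60.6%, 28.4% higher and 32.2% lower. The direction and the call of each of the 10 genes were as given above in every other fit in which it was tested, apart from *Eno2*, which was below the filter at a mean of 5 FPKM and was called in none of the others.

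Other isozymes of these steps were mostly near 0. *Pgk2* was listed at 0 in every library, *Aldoart2* and *Eno4* averaged at most 0.0242 FPKM in a group, and *Aldoart1* averaged 0.0326 FPKM with DMSO and 0.112 with DADA. The sperm isozyme *Gapdhs* averaged 0.740 FPKM with DMSO and 1.11 FPKM with DADA. It was below the filter, and without the filter its log2 difference was 0.28 (limma, adjusted p = 0.00863). *Pgam5*, which is named for the mutase family but is a mitochondrial protein phosphatase, fell from 35.6 ± 1.23 to 30.6 ± 0.889 FPKM (SD, n = 4), a log2 difference of -0.21 (limma, adjusted p = 2.32e-04).

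Upstream, the genes of glucose entry and the first steps went both ways. Of 10 genes of upper glycolysis, 8 passed the filter, with 5 higher, 3 lower and a median log2 fold change of 0.63. Beside them, 30.9% of all rows tested were called higher and 35.3% lower. The glucose transporters moved in opposite directions, *Slc2a3* from 27.6 ± 2.23 to 178 ± 4.52 FPKM (log2 difference 2.65) and *Slc2a1* from 116 ± 3.66 to 29.1 ± 1.27 FPKM (log2 difference -1.96; limma, adjusted p = 5.72e-11 and 4.75e-11). The phosphofructokinase gene *Pfkl* rose by 1.22 on the log2 scale, whereas *Hk1*, a hexokinase, fell from 66.8 ± 1.14 to 30.6 ± 0.708 FPKM, a log2 difference of -1.10 (limma, adjusted p = 3.53e-10 and 2.23e-10).

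Downstream, of 12 genes of pyruvate and lactate use, 4 were higher and 8 lower, with a median of -0.32. The shares over all rows tested were 30.9% higher and 35.3% lower. *Slc16a3*, the monocarboxylate transporter known for lactate export, rose from 23.9 ± 2.48 to 112 ± 9.85 FPKM (log2 difference 2.18), and pyruvate carboxylase, *Pcx*, from 2.51 ± 0.0567 to 5.89 ± 0.292 FPKM (log2 difference 0.97; limma, adjusted p = 6.15e-09 and 5.19e-08). *Pdk1*, a kinase that DADA inhibits, differed by -1.06 on the log2 scale, and *Mpc2*, a subunit of the mitochondrial pyruvate carrier, by -0.78 (limma, adjusted p = 3.53e-10 and 3.56e-06).

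Branches that leave or regulate the pathway also went both ways. Of 19 such genes, 16 were tested, with 4 higher, 6 lower, 6 not called and a median of -0.06. That is near the table as a whole, where 66.2% of rows were called, with a median of -0.02. *Pfkfb3* and *Pfkfb4*, whose products make the phosphofructokinase activator fructose 2,6-bisphosphate, rose by 1.09 and 0.46 on the log2 scale (limma, adjusted p = 2.79e-09 and 0.00116). *Phgdh*, which draws 3-phosphoglycerate from lower glycolysis into serine synthesis, went from 448 ± 11.2 to 293 ± 12.5 FPKM, a log2 difference of -0.61, and *G6pdx*, which opens the pentose phosphate pathway, differed by -0.70 (limma, adjusted p = 1.01e-07 and 3.36e-07).

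**Figure D5:**
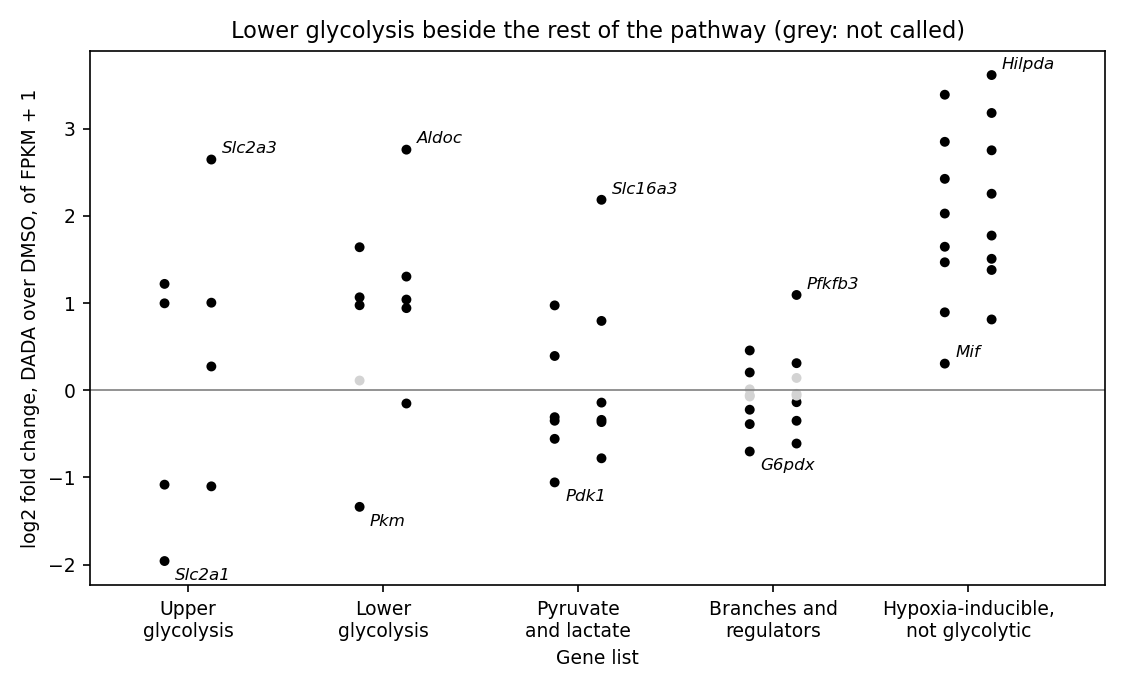
Log2 fold change of FPKM + 1 with DADA over DMSO for every gene of 5 lists that passed the filter, with 1 point a gene, black where called and grey where not. The 16 hypoxia-inducible genes outside glycolysis lie above 0, 1 of them (*Adm*) by the filter itself, upper and lower glycolysis each hold genes on both sides, and *Aldoc* and *Pkm* mark the ends of lower glycolysis.

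A list of 17 hypoxia-inducible genes outside glycolysis was read beside these genes because several lower glycolysis genes are known targets of the same factors. All 15 that passed the filter other than through the DADA group alone were called higher, with a median of 2.03. Over all rows tested, 30.9% were called higher. *Adm*, which encodes adrenomedullin, passed only through the DADA group, at 0 to 0.0968 FPKM with DMSO and 1.63 to 2.58 with DADA. Its direction was thus fixed by the filter. The remaining gene, *Car9*, was below the filter, with means of 0.339 FPKM with DMSO and 0.329 with DADA. Without the filter its log2 difference was -0.02 (limma, adjusted p = 0.886). By definition the list leaves out the genes of glycolysis and pyruvate use, which went both ways above. Among those left out, *Slc2a1*, *Hk2*, *Pdk1* and *Pkm* fell, with log2 differences of -1.96, -1.08, -1.06 and -1.34. Called higher were 5 genes of upper glycolysis, 4 of pyruvate and lactate use and 7 of lower glycolysis, and 3, 8 and 2 were lower. The uniform rise thus describes this list alone. The largest differences on the log2(FPKM + 1) scale were those of *Hilpda*, a lipid droplet protein, from 8.40 ± 1.08 to 114 ± 3.44 FPKM, and the collagen prolyl hydroxylase *P4ha2*, from 1.61 ± 0.109 to 26.4 ± 0.906 FPKM (log2 differences 3.62 and 3.39, limma, adjusted p = 1.05e-10 and 5.12e-12). Of 7 transcription factors known for glycolytic genes, 5 passed the filter and 3 were called, all higher, where 66.2% of all rows were called and 30.9% higher. *Hif1a* went from 210.2 ± 5.91 to 293 ± 4.98 FPKM, *Myc* from 121 ± 4.20 to 172 ± 4.28 FPKM and *Sp1* from 19.6 ± 0.340 to 22.0 ± 0.330 FPKM, with log2 differences of 0.48, 0.50 and 0.16 (limma, adjusted p = 8.99e-08, 2.13e-07 and 4.67e-04). *Arnt* and *Mlxip* were not called (log2 differences 0.02 and -0.01, limma, adjusted p = 0.668 and 0.789), and *Epas1* and *Mlxipl* were below the filter. These are transcript levels, and the activity of the factors was not measured in this table.

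By a rule on correlation, the 5 rows outside the set that most resembled the mean standardised profile of the 10 genes were *Gnai2*, *Rnf167*, *Mnt*, *Slc25a30* and *Arsb*. Pearson's r over the 8 libraries was 0.991 to 0.995. The libraries form 2 groups, 661 of 8179 rows compared exceeded 0.95, and such a value mostly restates the difference between the groups.

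Of 6 markers of CD8+ T cells, 5 had a row and summed to between 674 and 680 FPKM with DMSO and between 776 and 805 FPKM with DADA. Most of the listed markers of other cells were near 0. Of 5 B cell markers, 2 were at 0 in all libraries and *Cd79b* alone reached 1 FPKM, and the list summed to at most 3.54 FPKM in any library. Of 6 myeloid markers, 2 were at 0 in all libraries and *Cd68* alone reached 1 FPKM, and the sum was 3.51 to 3.99 FPKM with DMSO and 5.15 to 5.72 with DADA. *Cd68* was called higher, with a log2 difference of 0.44 (limma, adjusted p = 2.71e-05), and *Cd79b* was not called (limma, adjusted p = 0.215). The lists of CD4 T cells, NK cells, erythroid cells and skeletal muscle each summed to at most 0.741 FPKM, and that of neurons to at most 2.01 FPKM, with *Tubb3* alone at 1 FPKM or above. The part of these cells in the differences above was not tested, and in bulk RNA fewer cells of a type and less RNA per cell cannot be told apart.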

How the data were processed

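CD8+ T cell libraries were grouped by their titles, 4 with DMSO and 4 with DADA. The authors deposited FPKM values, 1 per gene or assembled transcript and library, from paired reads. The submitters' processing notes name CASAVA 1.8.2, FastQC 0.11.9, HISAT2 2.0.5, StringTie 1.3.3, Picard 1.41 and SAMtools 0.1.18 and the builds GRCh38 and GRCm39, with no roles. The labels and the paper's methods name different library kits, and strand handling is not given in the sources used here. Column sums ran from 438299 to 456939 FPKM. FPKM hold no counts: at the best-fitting depth, 36.4% to 42.8% of low values lay within 0.1 of a whole fragment, where chance gives 20%, so the depth stays unknown and no count test was run.

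Values were tested as log2(FPKM + 1) for rows at 1 FPKM or more in at least 4 libraries, with limma 3.58.1 in R 4.3.3 (eBayes with a mean-variance trend, Benjamini-Hochberg over 10666 rows, calls under 0.05). The paper states a two-tailed test for 2 groups. The fit was also run on simulated data with far fewer changed rows than were called here. No result above rests on that run. Isozyme ratios were tested by two-sided exact permutation over 70 assignments in Python 3.11.15. Copies were sought with blastn 2.17.0 (at least 500 bases at 90% identity) in GENCODE M21, and upstream windows come from RefSeq on GRCm38.p6. The 10 genes were matched by symbol, and the genes and lists were chosen with earlier results of these data known. The other genes named are the 2 largest called changes in each direction of each list, the other isozymes and transcription factors listed (some items are not reported here), copies of the 10 genes and the 5 most similar rows. *Hk2*, *Adm*, *Car9*, *Cd79b*, *Cd68* and *Tubb3* were named after their values were seen.

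Alternatives were a pseudocount of 0.1, no filter, a mean of at least 5 FPKM, TPM, median-ratio and quantile scaling, no trend, the replicate number as a block and each library left out. Same-numbered libraries did not deviate together, so the numbers were not used to pair them. This does not exclude a shared mouse or culture behind a number.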

Additional observations from a re-analysis of the deposited data

Results flagged for a closer look

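Of 42 groups of 4 libraries examined for the 10 genes, their ratios, shares and copies, 4 held a library whose gap to its neighbour was past the 95% point of Dixon's ratio, the gap divided by the range of the group, and chance gives about 1 in 20. *Aldoc* was at 19.2 FPKM in DADA replicate 2 against 20.3 to 20.4 FPKM in the other DADA libraries (ratio 0.863), a gap that is small beside the 2.11 FPKM mean with DMSO. In DMSO replicate 2 the share of *Aldoc* in both aldolases was 0.254% against 0.278% to 0.280% in the other DMSO libraries (ratio 0.926), and the log2 ratio of *Aldoc* to *Aldoa* was -8.03 against -7.94 to -7.93 (ratio 0.864). *Gapdhrt2* was at 37.9 FPKM in DADA replicate 3 against 40.3 to 40.8 FPKM in the others (ratio 0.833). No library of *Gapdh* was past it in either group.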

How the results depend on the processing

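The 7 rises and 2 falls among the 10 genes were the same in number under all 16 alternatives, and the count of rows called over the whole table lay between 5741, when rows had to average 5 FPKM or more, and 7868 without the filter, beside 7064. TPM scaling gave 3604 higher and 3380 lower and quantile normalization 3005 and 4116, beside 3296 and 3768, and no scaling moved the median of all rows by more than 0.03 on the log2 scale. With 1 library left out, the log2 fold change of *Pkm* was -1.35 to -1.33, that of *Aldoc* 2.74 to 2.78 and that of *Gapdh* 1.24 to 2.05. The replicate number as a block left the limma calls of the 10 genes as they were. For the isozyme ratios, an exact sign-flip permutation test over 4 pairs cannot go below p = 0.125, and it gave that p for the ratios of *Aldoc* to *Aldoa* (1.69), *Eno2* to *Eno1* (-0.83) and *Eno3* to *Eno1* (-1.09), which says nothing of their stability. Same-numbered libraries correlated by 0.10, -0.12, -0.09 and 0.08 in their deviations, no number matched best with its own, and the block called 6995 rows. The list of other isozymes, with 3 genes tested, moved to a median of 0.54 under quantile normalization, beside 0.80, which is the value of *Pgam2*, a gene that passed the filter only through the DADA libraries. Without it the median of the other 2 genes was 0.37. The depth behind these values is unknown, which limits the genes near 1 FPKM most.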
